A study of Mus musculus with 4 samples.

Results

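A set of 35 genes of the melanocyte lineage and the melanosome, of 25239 gene symbols in the count tables, was described in 4 RNA-seq libraries from mouse B16 tumors. The genes were taken by symbol, and all 35 were present in every table. They were sorted by what is known of where they are used, at a time when earlier results of these data were also known. The classes were 13 genes largely restricted to pigment cells and 7 lineage genes also used by other cells (shared lineage genes). The other 15 were genes of melanosome trafficking, most of them widely expressed. Sox10 was placed among the restricted genes, although Schwann cells also use it. B16 is a transplantable melanoma line of B6 mice, and cells were placed under the skin, with tumors on a left and a right flank. Treatment began on day 7 and all groups received CTX by the intraperitoneal route the day before ACT, which the labels leave unexplained. Tumors were taken 12 days after ACT. The MV (L.i.t.) library came from left tumors injected with free MV, and the hosts were given TRP-1 T cells intravenously as well. The table headers write MYXV for MV, as myxoma virus is usually abbreviated. The TRP-1MV library came from mice given TRP-1 cells intravenously, the same number, whose labels and headers add MV or MYXV. The Remote tumor (no MV) library, called the remote tumor here, came from the uninjected right tumors of the mice with MV in the left tumor, so its hosts also had TRP-1 T cells and MV. The treatment label of the CTX library lists PBS injected into left tumors and names neither T cells nor MV. From which flank the CTX and TRP-1MV libraries came is not stated. A group given T cells without MV was not analysed here.

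Melanocytes are neural crest derived cells that make melanin inside melanosomes, organelles related to lysosomes. Melanin synthesis starts from tyrosine and runs through tyrosinase and its relatives. The transcription factor MITF, with SOX10 and PAX3 acting on its gene, controls many of the enzymes and structural proteins, and MC1R signalling raises MITF in mouse and human melanocytes. Melanosome proteins are sorted by complexes that most cell types use for lysosome-related organelles, and mutations in those complexes lighten the coat of mice. TRP-1 T cells carry the name of the protein made from Tyrp1, so the melanosome is also the source of the antigen named in the treatment.

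Each group had 1 library, so no test between groups was possible, and the labels' n of 2 is not explained as pooled or separate mice. Total counts were 12375526 for MV (L.i.t.), 14802809 for TRP-1MV, 21790759 for the remote tumor and 20811605 for CTX. Levels are given as CPM, the reads of a gene after each library is scaled to a common size with a TMM factor, which balances library composition. Ratios are on the log2 scale, with 95% exact intervals in brackets that cover counting error only. The intervals narrow as reads rise, so shares of intervals off 0 depend on depth. The rule for calling a gene higher or lower was a ratio of 2 or more with an interval that excludes 1. All 35 genes had a mean count of at least 10 and the lowest count in any library was 11, so no gene entered through 1 group alone. The tumor tissue also held other cells. Summed CPM of 12 T cell markers was 398 in MV (L.i.t.) and 401 in TRP-1MV, against 12.9 in the remote tumor and 13.2 in CTX. For 12 macrophage markers the sums were 994 and 1450.0, against 113 and 90.3, in the same order. The labels give the tissue as skin, but the 8 keratinocyte markers summed to 15.5 and 15.1, against 4.57 and 5.79, with Krt1 at 0 throughout. The transcripts Rn45s, Lars2 and Rpph1 took 1.64% and 1.62% of counts, against 0.164% and 0.141%, and leaving them and Rmrp out of the scaling kept 18 genes lower than in CTX in both MV (L.i.t.) and TRP-1MV. The part of such cells in the results below was not tested, and in bulk tumor tissue fewer pigment cells and less RNA per pigment cell cannot be told apart.

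Of the 35 genes, 18 were lower in the MV (L.i.t.) tumor than in the CTX tumor and 0 were higher, while 11.1% of the 13357 genes compared were lower and 18.1% higher. The TRP-1MV tumor had 18 lower and 0 higher against CTX, with 11.7% of all genes lower and 18.5% higher. These were the same 18 genes in both. The comparisons share the CTX library. On the housekeeping scale, which puts the median ratio of 15 housekeeping genes at 0, 10 genes were lower and 1 higher in MV (L.i.t.), with 2.55% and 35.8% of all genes. In TRP-1MV 13 were lower and 1 higher on that scale, with 3.23% and 32.7% of all genes. The remote tumor had 1 lower and 0 higher, with 0.247% of all genes lower and 0.457% higher. Together the 35 genes held 1.17% of all counted reads in MV (L.i.t.) and 1.15% in TRP-1MV, against 3.39% in the remote tumor and 3.33% in CTX. Tyrp1 stood at rank 14 of all symbols by reads in MV (L.i.t.), rank 16 in TRP-1MV, and rank 2 in both the remote and CTX tumors.

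**Figure D1:**
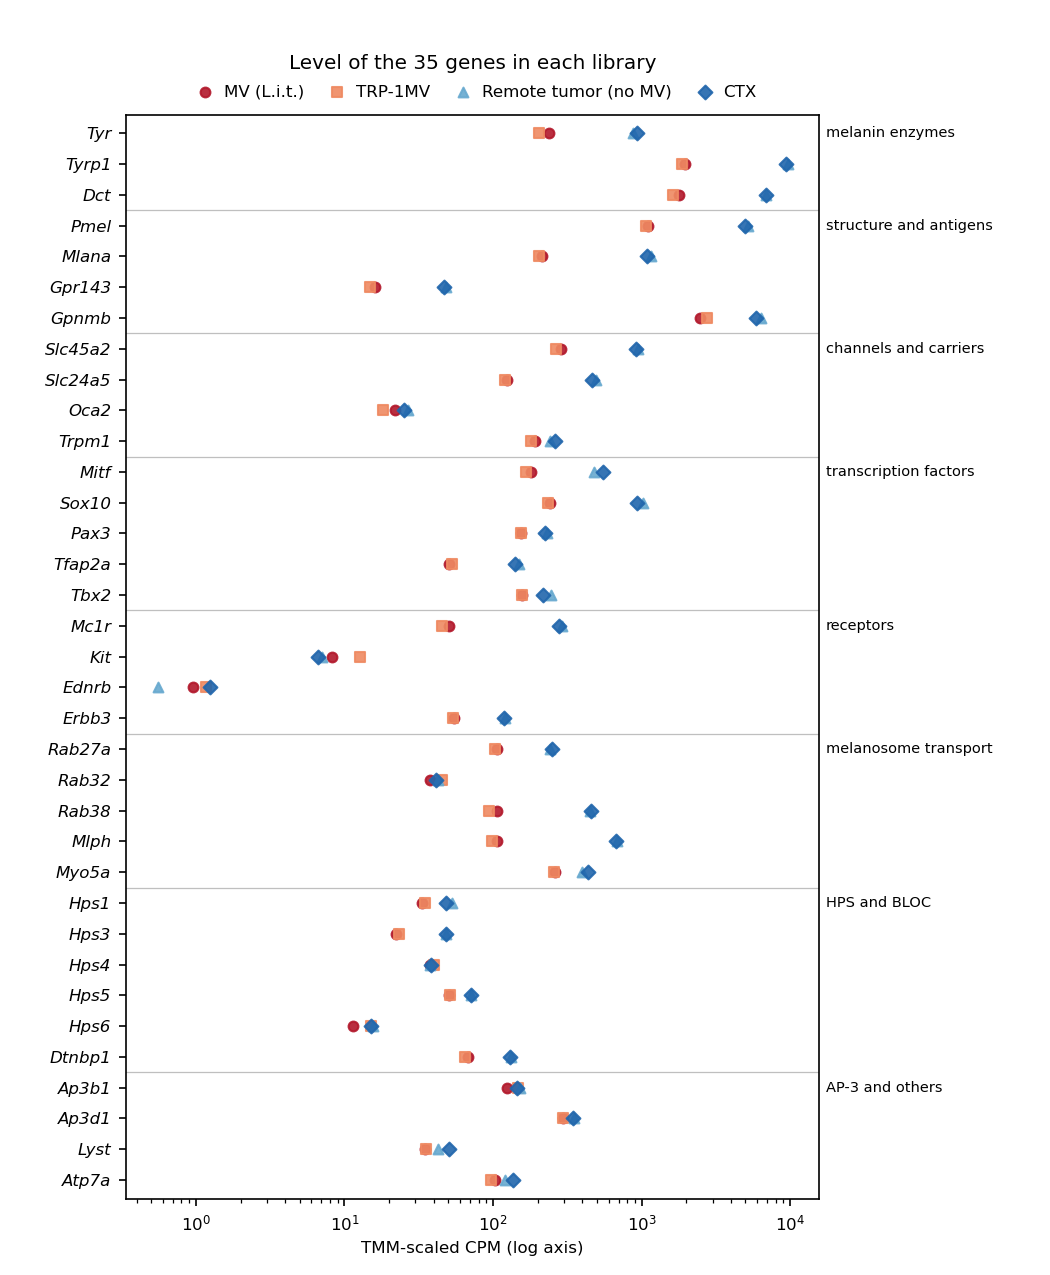
Level of each of the 35 genes on a log axis of TMM-scaled CPM, 1 point per library and no error bars, grouped by role. The MV (L.i.t.) and TRP-1MV points lie left of the remote and CTX points for the enzymes, Pmel, Mlana and Mlph, and close to them for Rab32, Hps4 and Ap3b1.

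The 3 melanin enzymes were lower in both MV (L.i.t.) and TRP-1MV, and their levels in the remote tumor lay close to CTX. Tyrp1, whose mouse mutation gives a brown coat and whose gene lies at chr4:80834123-80851719 (mm10), was at 1972 CPM in the MV (L.i.t.) tumor and 1871 in the TRP-1MV tumor, against 9589.5 in the remote tumor and 9354 in the CTX tumor. The log2 ratio to CTX was −2.25 [−2.26, −2.23] in MV (L.i.t.) and −2.32 [−2.34, −2.30] in TRP-1MV. Tyr encodes tyrosinase, which starts melanin synthesis and is the gene lost in albino mice. It was at 238 CPM in the MV (L.i.t.) tumor and 204 in the TRP-1MV tumor, against 875 in the remote tumor and 937 in the CTX tumor. Its ratios to CTX were −1.98 in the MV (L.i.t.) tumor and −2.20 in the TRP-1MV tumor. Dct, the dopachrome tautomerase of the slaty mouse, was at 1798 CPM in the MV (L.i.t.) tumor and 1629 in the TRP-1MV tumor, against 6836 in the remote tumor and 6896 in the CTX tumor. Its ratios were −1.94 in the MV (L.i.t.) tumor and −2.08 in the TRP-1MV tumor. For each enzyme both MV (L.i.t.) and TRP-1MV stood below both other tumors, and the remote tumor differed from CTX by −0.10 for Tyr, 0.04 for Tyrp1 and −0.01 for Dct.

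The starts of these genes are known for the M-box, a short element bound by MITF and read here as TCATGTG on either strand. RefSeq promoter entries (GRCm38.p6, 250 bases before to 50 after a gene's start) were found for 26 of the 35 genes. Pax3, Erbb3, Slc45a2, Sox10, Tbx2, Pmel, Gpr143, Rab38 and Mlana had no entry in the table. TCATGTG was found in 7 of the 26 genes (26.9%). Counted the same way it was in 4.31% of all 27025 genes with an entry, and in 3.77% of the 32851 single promoters of the same length. The 26 genes were chosen and not drawn at random, and some are known for this element. The shares are therefore a description and not a test. By class, 6 of 8 restricted genes, 0 of 4 shared lineage genes and 1 of 14 trafficking genes (Hps1) held it. The 6 restricted genes were Tyr, Tyrp1, Dct, Slc24a5, Trpm1 and Mc1r, and their windows are printed because the lineage-restricted genes carry the main difference. Each runs 5′ to 3′ along the transcript, with every TCATGTG, or CACATGA where the element is on the other strand, in capitals. Genome coordinates are of GRCm38.p6.
Tyr (chr7:87493463-87493762, minus strand): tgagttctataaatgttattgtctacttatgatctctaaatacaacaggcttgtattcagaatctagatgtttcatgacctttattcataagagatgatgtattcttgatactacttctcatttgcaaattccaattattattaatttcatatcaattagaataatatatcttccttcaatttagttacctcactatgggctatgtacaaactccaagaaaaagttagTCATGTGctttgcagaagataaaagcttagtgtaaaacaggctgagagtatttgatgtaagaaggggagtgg
Tyrp1 (chr4:80833963-80834262, plus strand): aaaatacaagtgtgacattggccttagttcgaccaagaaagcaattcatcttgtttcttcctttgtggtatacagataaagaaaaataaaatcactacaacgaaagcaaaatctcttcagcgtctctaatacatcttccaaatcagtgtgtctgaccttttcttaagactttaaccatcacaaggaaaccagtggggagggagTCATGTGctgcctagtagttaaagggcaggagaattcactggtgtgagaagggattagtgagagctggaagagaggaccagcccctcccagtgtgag
Dct (chr14:118052197-118052496, minus strand): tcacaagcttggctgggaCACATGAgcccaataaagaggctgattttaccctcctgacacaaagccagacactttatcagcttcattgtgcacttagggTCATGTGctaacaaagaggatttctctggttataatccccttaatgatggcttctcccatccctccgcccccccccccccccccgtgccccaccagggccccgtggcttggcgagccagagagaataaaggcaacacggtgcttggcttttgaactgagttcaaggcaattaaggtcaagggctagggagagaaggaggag
Mc1r (chr8:123406832-123407131, plus strand): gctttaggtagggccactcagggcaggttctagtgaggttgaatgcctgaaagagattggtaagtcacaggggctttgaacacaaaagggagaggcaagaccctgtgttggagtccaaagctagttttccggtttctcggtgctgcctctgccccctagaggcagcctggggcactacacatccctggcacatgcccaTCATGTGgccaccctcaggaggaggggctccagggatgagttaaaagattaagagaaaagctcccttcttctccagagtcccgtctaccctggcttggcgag
Slc24a5 (chr2:125067877-125068176, plus strand): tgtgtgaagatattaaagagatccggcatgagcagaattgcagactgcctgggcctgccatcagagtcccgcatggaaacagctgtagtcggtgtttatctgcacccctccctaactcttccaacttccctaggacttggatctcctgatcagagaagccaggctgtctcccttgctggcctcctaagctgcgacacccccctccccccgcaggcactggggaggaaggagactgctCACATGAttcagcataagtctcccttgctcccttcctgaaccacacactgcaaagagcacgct
Trpm1 (chr7:64153585-64153884, plus strand): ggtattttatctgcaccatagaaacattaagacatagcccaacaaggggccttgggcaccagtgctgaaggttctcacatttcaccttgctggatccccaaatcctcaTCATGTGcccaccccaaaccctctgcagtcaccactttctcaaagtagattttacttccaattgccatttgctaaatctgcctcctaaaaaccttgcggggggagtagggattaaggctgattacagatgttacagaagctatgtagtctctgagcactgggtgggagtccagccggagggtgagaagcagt

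In these windows TCATGTG began 22 bases before the start for Tyr, 47 for Tyrp1 and 52 for Mc1r, and on the other strand 13 before for Slc24a5. Dct held 2 copies, the nearer beginning 151 bases before the start. Of these 6 genes, 5 were among the 18 lower ones. Trpm1, with its copy beginning 142 bases before the start in the first of its 2 entries, was not. Of all 13 restricted genes 11 were lower, so 5 of 6 is near the share of the class. Hps1, which also held TCATGTG, was not lower. Mitf and Oca2 had entries with no match, as did Mlph, and of these Mitf and Mlph were lower. The shorter CATGTG, which lies inside TCATGTG, was in 8 of 26 genes and 15.9% of all genes with an entry. CACGTG, a palindrome bound by many factors of MITF's class, was in 7 of 26 genes, 6 of them trafficking genes, and in 8.09% of all genes with an entry. AACAAAG, a core bound by SOX factors, was found for Dct alone, against 6.68% of all genes with an entry. A match is a run of letters in the window, and binding was not measured.

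Melanosome structure and antigen genes were also lower. Pmel, which forms the fibrils on which melanin is laid down and is the gene of the silver mouse, was at 1099 CPM in the MV (L.i.t.) tumor and 1069 in the TRP-1MV tumor, against 5175 in the remote tumor and 4958 in the CTX tumor. Its ratios to CTX were −2.17 in the MV (L.i.t.) tumor and −2.21 in the TRP-1MV tumor. Mlana encodes MART-1, a melanosome protein and melanoma antigen. It was at 215 CPM in the MV (L.i.t.) tumor and 205 in the TRP-1MV tumor, against 1156 in the remote tumor and 1081 in the CTX tumor, with ratios of −2.33 in the MV (L.i.t.) tumor and −2.40 in the TRP-1MV tumor. Gpr143, the melanosome receptor behind ocular albinism in humans, was a low gene at 16 CPM in the MV (L.i.t.) tumor and 14.8 in the TRP-1MV tumor, against 48.4 in the remote tumor and 46.7 in the CTX tumor. Its ratio was −1.55 [−1.77, −1.33] in MV (L.i.t.) and −1.65 [−1.87, −1.45] in TRP-1MV, and on the housekeeping scale the MV (L.i.t.) ratio of −0.82 did not pass.

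Gpnmb, a relative of Pmel found in melanosomes and also made by macrophages, was at 2477 CPM in the MV (L.i.t.) tumor and 2744 in the TRP-1MV tumor, against 6319.7 in the remote tumor and 5888 in the CTX tumor. Its ratios were −1.25 [−1.27, −1.23] in MV (L.i.t.) and −1.10 [−1.12, −1.09] in TRP-1MV, nearer to 0 than those of Pmel and Mlana. They did not pass on the housekeeping scale, at −0.53 and −0.45, and the TRP-1MV call was also lost with total counts. The macrophage marker sums given above were highest in TRP-1MV and next in MV (L.i.t.), the order of the Gpnmb to Tyrp1 ratio below. Their part in the Gpnmb level was not tested. By level per kilobase of exon, Tyrp1 was first in all 4 libraries, at 697 CPM per kb in MV (L.i.t.) and 661 in TRP-1MV, against 3391 in the remote tumor and 3308 in CTX. Pmel came next in all 4. Gpnmb ranked 3 in MV (L.i.t.) and TRP-1MV and 5 in the remote and CTX tumors, behind Dct and Mlana.

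The carriers and channels split. Slc45a2, a transporter of the underwhite mouse that helps set melanosome pH, was at 287 CPM in the MV (L.i.t.) tumor and 264 in the TRP-1MV tumor, against 942 in the remote tumor and 914 in the CTX tumor. Its ratios to CTX were −1.67 in the MV (L.i.t.) tumor and −1.79 in the TRP-1MV tumor, and the MV (L.i.t.) ratio on the housekeeping scale, −0.95, did not pass. Slc24a5, a cation exchanger that shapes pigment in zebrafish and humans, was at 125 CPM in the MV (L.i.t.) tumor and 121 in the TRP-1MV tumor, against 496 in the remote tumor and 463 in the CTX tumor. Its ratios were −1.89 in the MV (L.i.t.) tumor and −1.93 in the TRP-1MV tumor. In the GENCODE M21 annotation Slc24a5 shares 921 bases, 39.5% of its exon length, with Myef2 on the opposite strand. The strand setting of the counting is not given, so reads from the shared stretch cannot be told apart. The same holds for 653 bases that Mc1r shares with Gm38092 and 380 that Tfap2a shares with Gm26688.

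Oca2 and Trpm1 were the 2 restricted genes that did not pass the rule. Oca2, the melanosome membrane protein of the pink-eyed dilution mouse at chr7:56239760-56536518, was at 21.9 CPM in the MV (L.i.t.) tumor and 18.3 in the TRP-1MV tumor, against 26.7 in the remote tumor and 25.1 in the CTX tumor. Its ratio was −0.20 [−0.41, 0.02] in MV (L.i.t.) and −0.46 [−0.67, −0.25] in TRP-1MV. Trpm1, a cation channel gene at chr7:64153835-64269775 that is high in benign pigment cells, was at 190.5 CPM in the MV (L.i.t.) tumor and 179 in the TRP-1MV tumor, against 242 in the remote tumor and 262 in the CTX tumor. Its ratio was −0.46 [−0.53, −0.39] in MV (L.i.t.) and −0.55 [−0.62, −0.48] in TRP-1MV. The rarer Gpr143 had 216 reads in MV (L.i.t.) and 895 in CTX and passed, whereas Trpm1 had 2574 and 5034 in the same order. On the housekeeping scale the ratios of Oca2 and Trpm1 lay above 0 in both comparisons.

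**Figure D2:**
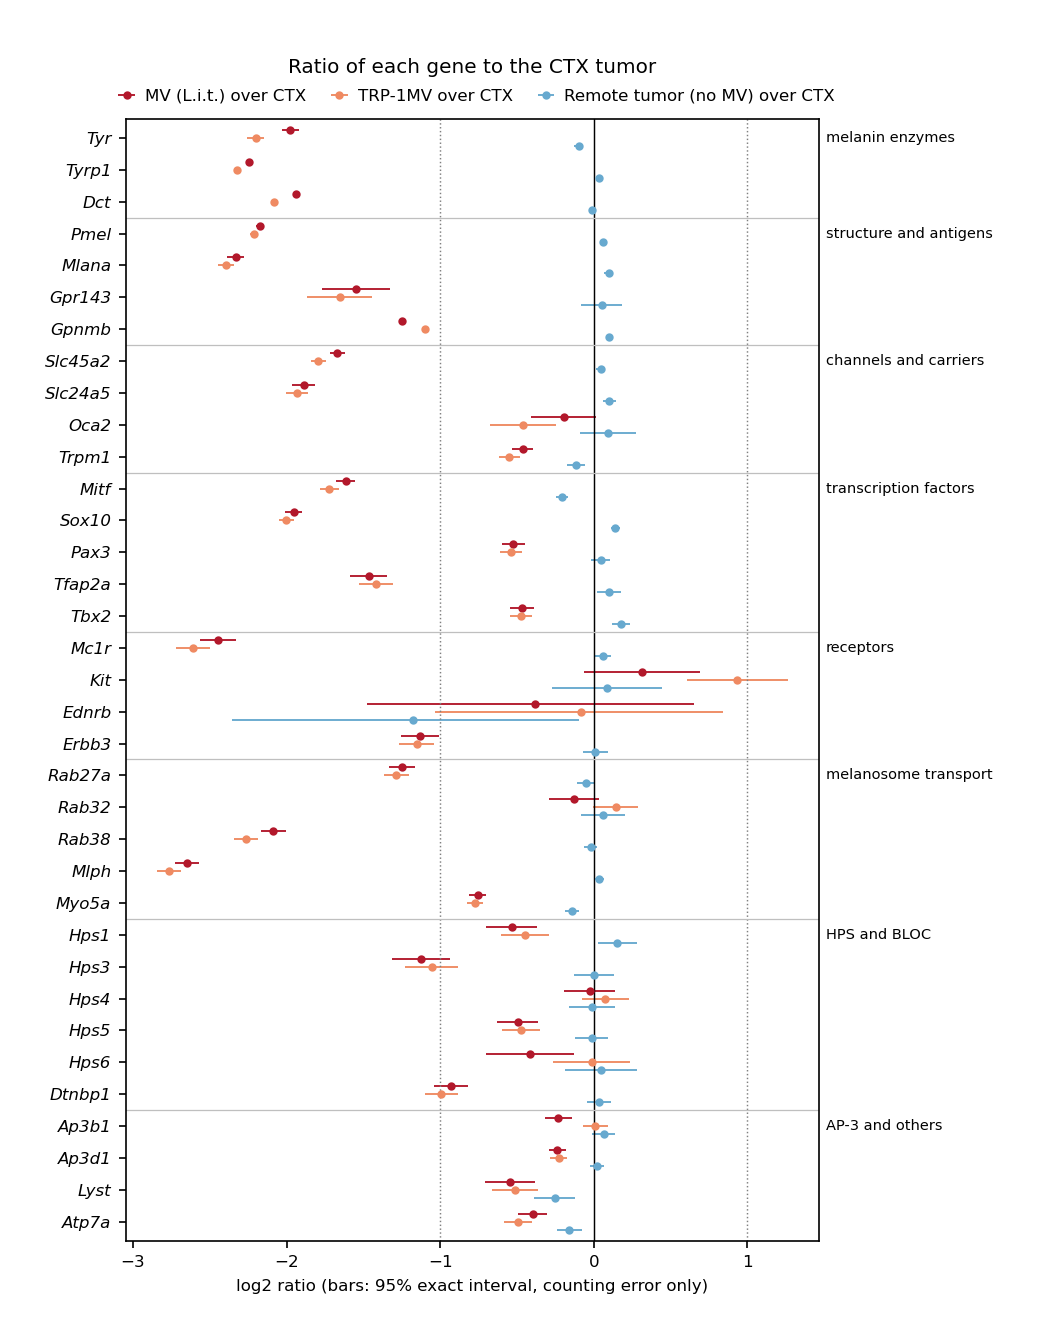
Log2 ratio of each gene to the CTX tumor, with bars for the 95% exact interval from counting error only and dotted lines at a ratio of 2 either way. Mlph and Mc1r lie furthest left in MV (L.i.t.) and TRP-1MV, Kit lies to the right of 0, and the remote tumor ratios stay near 0 except for Ednrb, which had 11 reads against 24.

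Of 5 lineage transcription factors, 3 passed the rule and all 5 lay below CTX with TMM in both MV (L.i.t.) and TRP-1MV. Mitf, the factor at the head of the pigment programme, was at 181 CPM in the MV (L.i.t.) tumor and 168 in the TRP-1MV tumor, against 480.2 in the remote tumor and 553 in the CTX tumor. Its ratios were −1.62 in the MV (L.i.t.) tumor and −1.72 in the TRP-1MV tumor, and the remote tumor itself stood at −0.20 [−0.24, −0.16]. On the housekeeping scale Mitf stood at −0.89 in MV (L.i.t.), which did not pass, and at −1.07 in TRP-1MV, which did. Counts are per gene, so the melanocyte form of Mitf and its other forms are added together. Sox10, the neural crest factor that activates Mitf and Dct, was at 241 CPM in the MV (L.i.t.) tumor and 233 in the TRP-1MV tumor, against 1029 in the remote tumor and 933 in the CTX tumor, with ratios of −1.95 in the MV (L.i.t.) tumor and −2.00 in the TRP-1MV tumor. Tfap2a, a factor shared by neural crest, skin and placenta, was at 50.9 CPM in the MV (L.i.t.) tumor and 52.7 in the TRP-1MV tumor, against 151 in the remote tumor and 141 in the CTX tumor. Its ratios were −1.47 in the MV (L.i.t.) tumor and −1.42 in the TRP-1MV tumor, and on the housekeeping scale −0.74 and −0.77, which did not pass. The remaining pair did not pass. Pax3, which acts with SOX10 on Mitf in the neural crest, had ratios of −0.52 in the MV (L.i.t.) tumor and −0.54 in the TRP-1MV tumor. Tbx2, a repressor also used in many other tissues, was at 157 CPM in the MV (L.i.t.) tumor and 156 in the TRP-1MV tumor, against 245 in the remote tumor and 217 in the CTX tumor, with ratios of −0.47 in the MV (L.i.t.) tumor and −0.48 in the TRP-1MV tumor. On the housekeeping scale both genes lay above 0 in both comparisons.

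Among receptors, Mc1r had the lowest ratio to CTX and Kit the highest, and Kit was also the highest of the 35 genes in both MV (L.i.t.) and TRP-1MV. Mc1r, the melanocortin receptor that sets black against yellow pigment in mice (chr8:123407107-123410744), was at 50.9 CPM in the MV (L.i.t.) tumor and 45.5 in the TRP-1MV tumor, against 289.5 in the remote tumor and 278 in the CTX tumor. Its ratio was −2.45 [−2.56, −2.33] in MV (L.i.t.) and −2.61 [−2.72, −2.50] in TRP-1MV, lower than that of any melanin enzyme. Erbb3, the neuregulin receptor of neural crest, glia and many epithelia, was at 54.3 CPM in the MV (L.i.t.) tumor and 53.5 in the TRP-1MV tumor, against 119.8 in the remote tumor and 119 in the CTX tumor, with ratios of −1.13 in the MV (L.i.t.) tumor and −1.15 in the TRP-1MV tumor. Total-count scaling ended both Erbb3 calls, as did the housekeeping scale, where the ratios were −0.41 and −0.50. The summed CPM of 8 Schwann cell markers, cells that also use Erbb3 and Sox10, was 134 in MV (L.i.t.) and 146 in TRP-1MV, against 174 in the remote tumor and 172 in CTX.

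Kit, the stem cell factor receptor of melanoblasts, blood progenitors and mast cells (chr5:75574916-75656722), had 112 reads in MV (L.i.t.) and 205 in TRP-1MV, against 141 in the remote tumor and 128 in CTX. That is 8.29 CPM in the MV (L.i.t.) tumor and 12.7 in the TRP-1MV tumor, against 7.08 in the remote tumor and 6.67 in the CTX tumor. Its ratio was 0.31 [−0.07, 0.69] in MV (L.i.t.) and 0.93 [0.61, 1.26] in TRP-1MV, short of a ratio of 2. In TRP-1MV that was the 1 interval of the 35 above 0, with 29 below, while 81.3% of all genes had an interval off 0 in either direction. Kit passed the rule in TRP-1MV with total-count, upper-quartile and housekeeping scaling, at 1.17, 1.00 and 1.58. Of the mast cell genes, Cpa3, a protease, had 16 reads in MV (L.i.t.) and 31 in TRP-1MV, and 0 in both the remote and CTX tumors. Hdc, the histamine enzyme, had 34 and 80 reads, against 11 and 8 in the same order. The other mast cell genes Mcpt4, Cma1, Tpsb2, Fcer1a and Ms4a2 had 0 to 9 reads in every library. Summed over 8 mast cell genes the level was 26.7 CPM in MV (L.i.t.) and 29.4 in TRP-1MV, against 14.1 and 13.8 in the remote and CTX tumors, most of it Gata2, and its part in the Kit level was not tested. Ednrb, the endothelin receptor of the piebald mouse, was near the limit of detection. It had 13 reads in MV (L.i.t.), 19 in TRP-1MV, 11 in the remote tumor and 24 in CTX. It was the 1 gene called lower in the remote tumor, at −1.18 [−2.36, −0.09], and the call was lost when libraries were thinned to the smallest total.

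The transport machinery held the lowest ratio of all. In mouse melanocytes RAB27A on the melanosome, the linker melanophilin and the motor myosin Va carry melanosomes to the cell edge, and loss of these gives the ashen, leaden and dilute coats. Mlph, encoding melanophilin (chr1:90915085-90951142), was at 106 CPM in the MV (L.i.t.) tumor and 98.3 in the TRP-1MV tumor, against 684 in the remote tumor and 668 in the CTX tumor. Its ratio was −2.65 [−2.73, −2.57] in MV (L.i.t.) and −2.76 [−2.84, −2.69] in TRP-1MV, the lowest of the 35 in both. Rab27a was at 106 CPM in the MV (L.i.t.) tumor and 103 in the TRP-1MV tumor, against 242 in the remote tumor and 251 in the CTX tumor, with ratios of −1.25 in the MV (L.i.t.) tumor and −1.29 in the TRP-1MV tumor. On the housekeeping scale Rab27a stood at −0.53 and −0.64 and did not pass. Myo5a, which also serves neurons and other cells, had ratios of −0.76 in the MV (L.i.t.) tumor and −0.77 in the TRP-1MV tumor and did not pass. The 3 partners of 1 transport complex thus had ratios that spanned −2.65 to −0.76 in MV (L.i.t.).

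Rab38 and Rab32 encode related small GTPases that deliver enzymes to melanosomes and can stand in for each other in mice. Rab38, the gene of the chocolate mouse (chr7:88430273-88491572), was at 107 CPM in the MV (L.i.t.) tumor and 94.5 in the TRP-1MV tumor, against 448 in the remote tumor and 454 in the CTX tumor. Its ratios were −2.09 in the MV (L.i.t.) tumor and −2.26 in the TRP-1MV tumor. Rab32, which is used in many more tissues, was at 37.6 CPM in the MV (L.i.t.) tumor and 45.3 in the TRP-1MV tumor, against 42.8 in the remote tumor and 41.0 in the CTX tumor. Its ratio was −0.13 [−0.29, 0.04] in MV (L.i.t.) and 0.14 [−0.00, 0.29] in TRP-1MV, the highest trafficking gene in TRP-1MV. Per kilobase of exon, Rab38 stood at 67.8 and 59.9 CPM per kb in MV (L.i.t.) and TRP-1MV, against 284 and 288 in the remote and CTX tumors. Rab32 stood at 16.1 and 19.4, against 18.3 and 17.5, in the same order.

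The BLOC genes of Hermansky-Pudlak syndrome, a human disorder of lysosome-related organelles, were closer to CTX. The 6 in the set were Hps1, Hps3, Hps4, Hps5, Hps6 and Dtnbp1. Hps3 of the BLOC-2 complex was the 1 of these 6 that passed the rule. It was at 22.2 CPM in the MV (L.i.t.) tumor and 23.3 in the TRP-1MV tumor, against 48.4 in the remote tumor and 48.4 in the CTX tumor, with a ratio of −1.12 [−1.32, −0.93] in MV (L.i.t.) and −1.06 [−1.23, −0.88] in TRP-1MV. Total-count scaling ended both calls, as did the housekeeping scale at −0.40 and −0.41, and upper-quartile factors ended the one in TRP-1MV. Its BLOC-2 partners Hps5 and Hps6 had ratios of −0.49 and −0.41 in MV (L.i.t.), and −0.47 and −0.01 in TRP-1MV. The BLOC-3 pair, Hps1 and Hps4, forms the exchange factor for RAB32 and RAB38. Hps4 was at 37.5 CPM in the MV (L.i.t.) tumor and 40.3 in the TRP-1MV tumor, against 37.9 in the remote tumor and 38.2 in the CTX tumor, with ratios of −0.03 in the MV (L.i.t.) tumor and 0.08 in the TRP-1MV tumor. Hps1 was at 33.1 CPM in the MV (L.i.t.) tumor and 35.1 in the TRP-1MV tumor, against 53.3 in the remote tumor and 47.9 in the CTX tumor, with ratios of −0.53 in the MV (L.i.t.) tumor and −0.45 in the TRP-1MV tumor. Dtnbp1, the dysbindin subunit of BLOC-1, lay just outside the rule against CTX at −0.93 and −0.99, and inside it against the remote tumor in TRP-1MV at −1.03, a call lost with DESeq2, upper-quartile, total-count and housekeeping scaling.

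The remaining trafficking genes did not pass. Ap3b1 and Ap3d1, subunits of the AP-3 adaptor that sorts tyrosinase, had ratios of −0.23 and −0.24 in MV (L.i.t.), and 0.01 and −0.23 in TRP-1MV. Lyst, the gene of the beige mouse and of Chediak-Higashi syndrome, was at 34.8 CPM in the MV (L.i.t.) tumor and 35.6 in the TRP-1MV tumor, against 42.5 in the remote tumor and 50.7 in the CTX tumor. Its ratios were −0.54 in the MV (L.i.t.) tumor and −0.51 in the TRP-1MV tumor, and it was the lowest trafficking gene in the remote tumor at −0.25 [−0.39, −0.12]. Atp7a, the pump that loads copper onto tyrosinase, had ratios of −0.40 in the MV (L.i.t.) tumor and −0.49 in the TRP-1MV tumor. By total counts without TMM, these 4 genes together held 0.0608% of reads in MV (L.i.t.) and 0.0626% in TRP-1MV. In the remote tumor they held 0.0611% and in CTX 0.0626%, so this unscaled share hardly differed between the 4 libraries. With TMM their summed CPM was lower in MV (L.i.t.), at 557, and TRP-1MV, at 575, against 669 in the remote tumor and 679 in CTX.

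By class median, lineage-restricted genes stood lower than the trafficking genes. The classes were drawn up with earlier results of these data known, so their difference is a description and not an independent test. Sox10, which Schwann cells also use, counted as restricted, and no alternative moved it. In MV (L.i.t.) 11 of 13 restricted, 3 of 7 shared lineage and 4 of 15 trafficking genes were lower than in CTX. TRP-1MV had the same counts, and 11.1% and 11.7% of all genes were lower. On the housekeeping scale 8 restricted, 0 shared lineage and 2 trafficking genes were lower in MV (L.i.t.), and 11, 0 and 2 in TRP-1MV. The shares of all genes lower on that scale were 2.55% and 3.23%. A further change came with total counts, which left 2 shared lineage and 3 trafficking genes lower in MV (L.i.t.), and 1 and 3 in TRP-1MV. With total counts 6.66% and 6.97% of all genes were lower. The median log2 ratio was −1.94 for restricted, −0.52 for shared lineage and −0.53 for trafficking genes in MV (L.i.t.). In TRP-1MV the medians were −2.00, −0.54 and −0.49. The median of all genes compared was −0.05 in MV (L.i.t.) and −0.07 in TRP-1MV. The difference of the restricted and trafficking medians, which no scaling of the libraries can move, was −1.40 in MV (L.i.t.), or 2.65-fold. In TRP-1MV it was −1.51, or 2.85-fold. Between the remote and CTX tumors it was 0.05. In both MV (L.i.t.) and TRP-1MV, 2 trafficking genes, Mlph and Rab38, lay below the restricted median, and without them the difference was −1.45 in MV (L.i.t.) and −1.53 in TRP-1MV. The trafficking and shared lineage medians were below 0 with TMM but above 0 on the housekeeping scale, at 0.19 and 0.20 in MV (L.i.t.) and 0.16 and 0.11 in TRP-1MV. The 15 housekeeping genes themselves had a median of −0.72 in MV (L.i.t.) and −0.65 in TRP-1MV, below that of the trafficking genes.

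**Figure D3:**
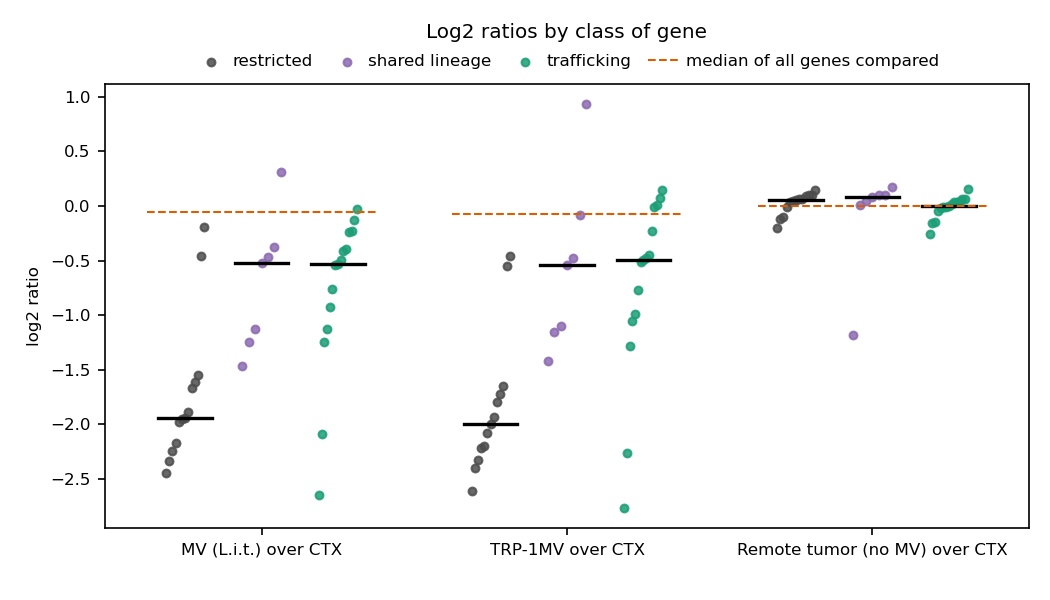
Log2 ratios to CTX by class, 1 point per gene with the class median as a black bar and the median of all genes compared as a dashed line. In MV (L.i.t.) and TRP-1MV the restricted medians are −1.94 and −2.00, below the shared lineage and trafficking medians, and in the remote tumor all 3 medians lie near 0.

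Level and ratio went together across the 35 genes. With the level per kilobase taken from the remote tumor, which enters neither ratio, Pearson's r with the MV (L.i.t.) to CTX ratio was −0.75 and Spearman's rho −0.77. For TRP-1MV they were −0.76 and −0.78. The points are genes of the same libraries, not independent replicates, and both ratios use the CTX library. The restricted genes supply most of the high levels, so class and level overlap here. Some pairs at like levels differed all the same. Mlph and Tyr stood at 125 and 132 CPM per kb in CTX, with MV (L.i.t.) ratios of −2.65 and −1.98. Tbx2 and Rab27a stood at 59.7 and 64.6 CPM per kb in CTX, with ratios of −0.47 and −1.25. Trpm1 and Gpr143 stood at 17.8 and 23.4 CPM per kb in CTX, with ratios of −0.46 and −1.55.

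The make-up of the pigment transcripts was then read within each library as reads per 100 Tyrp1 reads, which needs no scaling between libraries. Pmel kept close to Tyrp1, with 55.8 in the MV (L.i.t.) and 57.1 in the TRP-1MV tumor, against 54.0 in the remote and 53.0 in the CTX tumor. Mlana had 10.9 in the MV (L.i.t.) and 11.0 in the TRP-1MV tumor, against 12.1 in the remote and 11.6 in the CTX tumor. Other genes stood higher against Tyrp1 in both MV (L.i.t.) and TRP-1MV than in the other tumors. That direction follows from the divisor, as only Mlana, Mc1r and Mlph had lower ratios to CTX than Tyrp1 in both. The steps were small for Sox10, with 12.2 in the MV (L.i.t.) and 12.5 in the TRP-1MV tumor, against 10.7 in the remote and 9.98 in the CTX tumor, and for Dct, with 91.2 in the MV (L.i.t.) and 87.1 in the TRP-1MV tumor, against 71.3 in the remote and 73.7 in the CTX tumor. They were larger for the next 5 genes. Mitf had 9.16 in the MV (L.i.t.) and 8.97 in the TRP-1MV tumor, against 5.01 in the remote and 5.92 in the CTX tumor. Trpm1 had 9.66 in the MV (L.i.t.) and 9.59 in the TRP-1MV tumor, against 2.53 in the remote and 2.81 in the CTX tumor. Pax3 had 7.89 in the MV (L.i.t.) and 8.23 in the TRP-1MV tumor, against 2.40 in the remote and 2.39 in the CTX tumor, and Oca2 had 1.11 in the MV (L.i.t.) and 0.976 in the TRP-1MV tumor, against 0.279 in the remote and 0.268 in the CTX tumor. Gpnmb overtook Tyrp1 by reads, with 126 in the MV (L.i.t.) and 147 in the TRP-1MV tumor, against 65.9 in the remote and 62.9 in the CTX tumor. Below Tyrp1 were Mlph, with 5.40 in the MV (L.i.t.) and 5.25 in the TRP-1MV tumor, against 7.13 in the remote and 7.14 in the CTX tumor, and Mc1r, with 2.58 in the MV (L.i.t.) and 2.43 in the TRP-1MV tumor, against 3.02 in the remote and 2.97 in the CTX tumor.

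**Figure D4:**
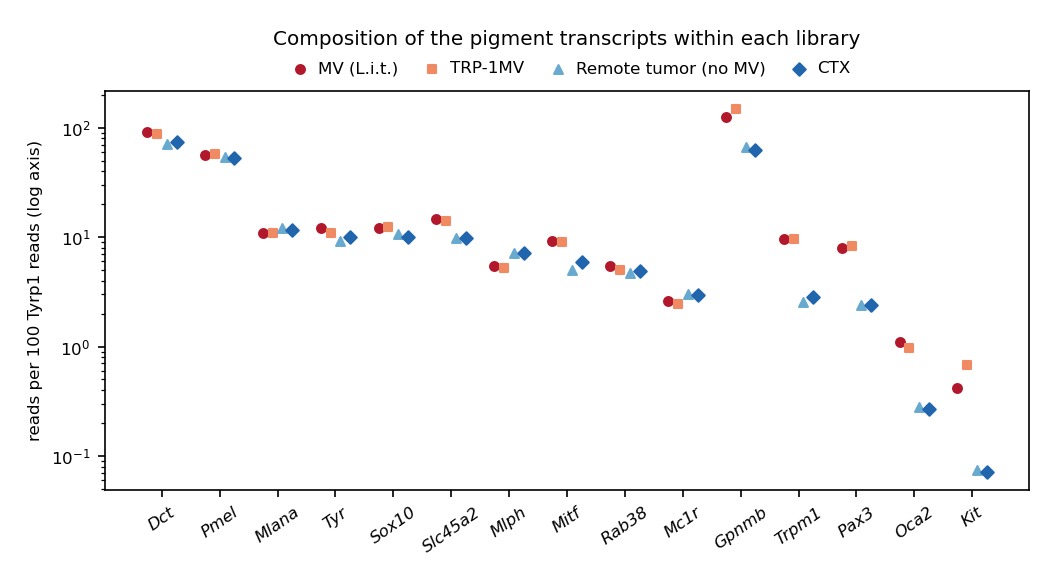
Reads of 15 genes per 100 Tyrp1 reads in each library on a log axis, 1 point per library and no error bars. Pmel and Mlana lie at similar heights in the 4 libraries, whereas Gpnmb, Trpm1, Pax3, Oca2 and Kit lie higher in MV (L.i.t.) and TRP-1MV.

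The MV (L.i.t.) and TRP-1MV tumors were close to each other. Of the 35 genes, 0 were higher and 0 lower in TRP-1MV than in MV (L.i.t.), with 0.562% of all genes higher and 0.217% lower. The log2 ratio was under 0.3 in size for 33 of the 35, against 83.4% of all genes compared. Of those 13357 genes 13348 had a ratio, and genes without one counted as not under 0.3. The exceptions were Kit at 0.62 [0.28, 0.96] and Hps6 at 0.40 [0.10, 0.70]. All 13 restricted genes had ratios below 0, from −0.26 for Oca2 to −0.04 for Pmel, and 9 of the intervals lay below 0, while 22.1% of all genes had an interval off 0 in either direction. Trafficking genes had 6 ratios below and 9 above 0. The restricted median was −0.11 and the trafficking median 0.02. With 1 library each, differences of this size cannot be told apart from differences between animals or preparations.

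The remote and CTX tumors were also close. The log2 ratio of the remote tumor to CTX was under 0.3 in size for 34 of the 35 genes, against 84.2% of all genes compared. Of those 13357 genes 13030 had a ratio, and genes without one counted as not under 0.3, which lowers that share. Intervals excluded 1 for 8 genes below and 11 above, against 24.1% of all genes, which were not matched to the members for reads. The lowest after Ednrb were Lyst at −0.25 and Mitf at −0.20, and the highest were Tbx2 at 0.18, Hps1 at 0.15 and Sox10 at 0.14. The MV (L.i.t.) tumor was set against the remote tumor too, as the labels place both on opposite flanks of the same treatment group. There 18 genes were lower and 0 higher, with 11.7% and 18.6% of all genes. TRP-1MV against the remote tumor had 19 lower and 0 higher, with 12.1% and 18.8%. The 18 genes lower than in CTX were lower than in the remote tumor in both cases, and the additional one was Dtnbp1. The restricted and trafficking medians differed by −1.45 in MV (L.i.t.) and −1.61 in TRP-1MV against the remote tumor.

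Other genes of the pathway were read from lists drawn up by function. Of 21 further genes of BLOC-1, AP-3, HOPS and melanosome transport, 20 passed the minimum count, and 2 were lower and 0 higher in both MV (L.i.t.) and TRP-1MV than in CTX. Of all genes compared 11.1% and 11.7% were lower, so 2 of 20 is near the share over all genes. The 2 were Rab17, a GTPase linked to dendrites and filopodia of melanocytes, and Sytl2, a RAB27 effector. Rab17 stood at −1.46 and −1.79, and Sytl2 at −1.12 and −1.29, in MV (L.i.t.) and TRP-1MV. The highest were Rabggta, a subunit of the enzyme that attaches lipid to RAB proteins, at 0.67 and 0.52, and Bloc1s2 at 0.53 and 0.35. In the remote tumor 0 of the 20 passed, with Ap3s1 lowest at −0.23 and Rabggta highest at 0.28.

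Of 25 further pigment cell genes, 23 passed the minimum, and 11 were lower and 4 higher in MV (L.i.t.) than in CTX, with 11 lower and 7 higher in TRP-1MV. Of all genes compared 11.1% were lower and 18.1% higher in MV (L.i.t.), and 11.7% and 18.5% in TRP-1MV, so the 4 higher of 23 are near the share over all genes. The lowest was Mcoln3, an endolysosomal channel gene of the varitint-waddler mouse. Mcoln3 had 51 reads in MV (L.i.t.) and 33 in TRP-1MV, against 560 in the remote tumor and 564 in CTX, with ratios to CTX of −2.96 and −3.84. The highest, Irf4 and Lef1, are also genes of lymphocytes. Irf4 had 1218 reads in MV (L.i.t.) and 1455 in TRP-1MV, against 3 in the remote tumor and 10 in CTX. Lef1 had 281 and 377, against 5 and 3, in the same order. Both passed the minimum through the MV (L.i.t.) and TRP-1MV reads, so their calls followed from it, and the part of T cells was not tested. In the remote tumor 0 of the 23 passed the rule, with Irf4 lowest at −1.79 and Lef1 highest at 0.68, on 10 reads or fewer in each library.

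The ligands and regulators were mostly at low counts. Of 12 listed, 10 were found by symbol and 5 passed the minimum. Asip was not found under that symbol. Attractin was searched as Attrn and not as its mouse symbol Atrn, so its presence was not checked. In MV (L.i.t.) and TRP-1MV 2 were higher than in CTX and 0 lower, with 18.1% and 18.5% of all genes higher. Against the remote tumor 1 was higher and 1 lower in MV (L.i.t.), with 18.6% and 11.7% of all genes, and 2 were higher and 1 lower in TRP-1MV, with 18.8% and 12.1%. Pomc, the precursor of the melanocortins that bind MC1R, had 33 reads in MV (L.i.t.) and 58 in TRP-1MV, against 32 in the remote tumor and 20 in CTX, and did not pass in MV (L.i.t.) against the remote tumor. Nrg1, a ligand of ERBB3, had 75 and 144, against 0 and 3, in the same order, and passed through the first 2 libraries. Kitl, the ligand of KIT, had 24 and 33, against 27 and 25, with ratios to CTX of 0.45 and 0.65 that did not pass. Nrg2, a neuregulin, had 28 and 33, against 98 and 62, and was the gene lower than in the remote tumor in both. Mgrn1, a ubiquitin ligase of the mahoganoid mouse, had the lowest ratios to CTX, −0.75 and −0.74. Edn3, the ligand of EDNRB, had 0 reads in every library.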

How the data were processed

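RNA was sequenced from tumor tissue, 1 library per group, although the source field of the labels names a cell line. The authors deposited raw counts, whole numbers for 25239 gene symbols per library, not normalized. HISAT2, featureCounts and mm10 are named without versions, per the submitters' processing notes. Not given in the sources used here are the annotation, the strand setting and how multimapping reads were treated. Groups came from sample titles.

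Counts were scaled with TMM factors over all genes (edgeR 4.0.16 in R 4.3.3) and divided by effective library size to give CPM. Levels per kilobase used the merged exon length of each gene in GENCODE M21 (mm10). The 13357 genes whose count averaged 10 or more were compared. Ratios have 95% exact conditional binomial (Clopper-Pearson) intervals (Python 3.11.15 with pandas 2.3.3, scipy 1.17.1 and numpy 2.4.6). Reads without molecular identifiers are not independent molecules, so intervals cover counting error only. A count of 0 allowed 0.222 CPM in MV (L.i.t.), 0.186 in TRP-1MV, 0.151 in the remote tumor and 0.156 in CTX, as 3 counts per library. Pairs with both libraries at 3 reads or fewer have no ratio. With 1 library per group, no p-value was computed. The calling step was tested on simulated counts.

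The genes, classes, lists and alternatives were chosen with earlier results of these data known. Levels or reads in every library are given for all restricted genes and, of the other classes, those past the rule or at the ends of the range in a comparison with CTX, and the remaining members by their ratios. The other named genes were the 2 highest and lowest of each pathway list, except a gene whose result is not reported here, and further genes of the lists added after their values were seen. Promoters and their sequences came from RefSeq (GRCm38.p6), and each gene counted as matching if any of its entries did. Figures were drawn with matplotlib 3.10.9. Alternatives were total counts, housekeeping scaling, DESeq2 1.42.0 size factors, upper-quartile scaling, TMM without ribosomal protein genes, other minimum counts and thresholds, thinning, means in place of medians, a prior count of 2, and other class members and motifs. Tyrp1 as divisor was also run. TMM without Rn45s, Lars2, Rpph1 and Rmrp, and the motif CACGTG, were added after seeing the data.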

Additional observations from a re-analysis of the deposited data

How the results depend on the processing

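No paired analysis was possible because 1 library stood for each group, and for the same reason none could be left out as a replicate. Against CTX, the median ratio of the restricted class stayed below 0 in MV (L.i.t.) and TRP-1MV under every alternative run except Tyrp1 as divisor. That divisor sets Tyrp1 itself at 0. With it the gene at the restricted median stood at 0.31 in MV (L.i.t.), Dct, and at 0.32 in TRP-1MV, Sox10. Scaling on the housekeeping genes raised every MV (L.i.t.) ratio to CTX by 0.72 and every TRP-1MV ratio by 0.65. It put the trafficking and shared lineage medians above 0, at 0.19 and 0.20 for MV (L.i.t.) over CTX, 0.16 and 0.11 for TRP-1MV over CTX, 0.27 and 0.11 for MV (L.i.t.) over the remote tumor, and 0.31 and 0.12 for TRP-1MV over the remote tumor. With it the genes called lower numbered 10 for MV (L.i.t.) over CTX, 10 for MV (L.i.t.) over the remote tumor and 11 for TRP-1MV over the remote tumor, while the share of all genes called lower was 2.55%, 2.49% and 2.58%. It called 1 gene higher in MV (L.i.t.) over CTX and 1 in TRP-1MV over CTX, Kit in both. Of all genes 35.8% and 32.7% were higher there. Against the remote tumor it called 1 higher in MV (L.i.t.), Ednrb, and 2 in TRP-1MV, Kit and Ednrb. The shares of all genes were 38% and 38.1%. Total counts called 1 higher in TRP-1MV over CTX, Kit, and 2 over the remote tumor, Kit and Ednrb. With them 22.3% and 23.1% of all genes were higher. Upper-quartile factors called 1 and 1, Kit over CTX and Ednrb over the remote tumor, with 19.4% and 19.7% of all genes. Ednrb had 11 reads in the remote tumor. Requiring a 4-fold ratio left 6 genes lower for MV (L.i.t.) over CTX and 9 for TRP-1MV over CTX, with 1.69% and 1.8% of all genes lower. Against the remote tumor it left 7 for MV (L.i.t.) and 10 for TRP-1MV, with 1.72% and 1.83% of all genes. For the remote tumor over CTX the 1 lower gene, Ednrb, became 0 with thinning, a stricter interval that excludes 2, a minimum mean count of 50, or a ratio of 4 or more. With means in place of medians, the restricted minus trafficking difference was −0.94 for MV (L.i.t.) over CTX and −1.10 for TRP-1MV over CTX. Over the remote tumor it was −0.98 for MV (L.i.t.) and −1.14 for TRP-1MV. Depth limited Ednrb most, with 11 to 24 reads per library. The cause of these moves was not tested beyond how each alternative is built, and differences between animals were not measured.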
